A study of Mus musculus with 16 samples.

Results

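The transcription factor gene Myc, its paralog Mycn, its partner Max and 36 genes of ribosome production and the biosynthesis that serves it were followed through mouse blood stem cells and leukemia stem cells. The 39 genes were taken from a list of names, not from measured values. All 39 were found by symbol in both of the study's tables, among the 26595 features of the CD93 experiment and the 36930 of the drug experiment. The naive groups were LSK cells, a marrow fraction in which hematopoietic stem cells are found, from C57BL/6 mice (WT LSK, 2 libraries) and from CD93-/- mice (KO LSK, 2 libraries). The leukemic groups were leukemia stem cells (LSCs) from mice with chronic myeloid leukemia (CML). The disease was made by transducing WT or CD93-/- LSK cells with BCR-ABL1-GFP, a fusion oncogene with a fluorescent marker, and transferring them into non-irradiated syngeneic BL/6 hosts, which thus kept their own marrow (WT LSC and KO LSC, 3 libraries each). In the drug experiment CML mice carrying WT leukemia received metoclopramide (MCP), a dopamine receptor antagonist, at 10 mg/kg or vehicle, and LSCs were sorted (MCP LSC and Veh LSC, 3 libraries each). All labels give an age of 8 weeks after birth, a strain is given for the WT and drug samples, and neither the LSC gate nor the deleted part of Cd93 is stated in the sources used here. Nothing in the labels ties a replicate to an animal of its own, and the p-values measure only the spread between these samples, which may be technical.

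MYC and MYCN are transcription factors that pair with MAX and bind E-boxes, short DNA motifs in the promoters of growth genes. Ribosome production is a well known target program of MYC: RNA polymerase I transcribes ribosomal RNA in the nucleolus, small nucleolar ribonucleoproteins modify it, and assembly factors build the small and large subunits around it. In blood, MYC is known for balancing stem cell self-renewal against differentiation, and fast-growing progenitors and leukemias depend on high ribosome output.

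The letters of the E-box, which MYC and MYCN bind with MAX, were looked for in promoters as a planned description, without a test. A RefSeq promoter window of 300 bases (GRCm38.p6, 250 bases before to 50 after the start) was matched for 32 of the 39 genes. Myc, Npm1, Fbl, Rrs1, Bop1, Srm and Rrp12 had no entry. The motif CACGTG, which reads the same on both strands, was in the window of 9 of the 32 genes (28.1%), against 8.09% of 27025 genes with a window and 11.9% of the tested genes of the drug experiment. The variant CACGCG, searched on both strands (CGCGTG on the other), was also in 9 of 32 (28.1%, against 10.5% of all genes and 19.5% of the tested genes of the drug experiment), and 16 of 32 (50%, against 17.2% and 28.7%) had at least 1 of these 2 motifs. The E-box and the variant cannot share letters, while both readings of the variant can. The CACGTG genes were Imp4, Nop2, Max, Pes1, Wdr43, Nle1, Ltv1, Utp20 and Mybbp1a. A match is a string of letters and not a measured binding site. Stretches of 3 genes (130 bases before the start and the 30 bases from it, gene strand, E-box in capitals) are shown for genes that differed in comparisons of the CD93 experiment, the MYC partner Max among them.
Imp4, chr1:34439699-34439858, plus strand: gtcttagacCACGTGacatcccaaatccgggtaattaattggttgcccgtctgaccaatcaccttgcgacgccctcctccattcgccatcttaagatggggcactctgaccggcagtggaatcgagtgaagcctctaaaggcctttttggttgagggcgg
Max, chr12:76962219-76962378, minus strand: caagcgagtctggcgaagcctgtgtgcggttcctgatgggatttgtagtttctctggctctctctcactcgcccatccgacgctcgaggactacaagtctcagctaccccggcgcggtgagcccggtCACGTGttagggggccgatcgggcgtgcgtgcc
Pes1, chr11:3963845-3964004, plus strand: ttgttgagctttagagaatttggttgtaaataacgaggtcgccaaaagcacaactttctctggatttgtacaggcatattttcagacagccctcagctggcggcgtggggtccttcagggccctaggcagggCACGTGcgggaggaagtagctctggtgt
The E-box of Imp4 begins 121 bases before the start, that of Max 3 bases before it and that of Pes1 2 bases after it. In Nle1 and Mybbp1a, which also differed, it lies 23 and 40 bases after the start. The window of Mycn, the gene with the largest drug difference, holds neither motif.

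The values are read densities per gene length and library size (RPKM), and a library's lowest value, 0.003 for CD93 libraries and 0.001 for drug libraries, is the floor at which many genes are listed. The libraries were of unequal content. All 39 genes were above the lowest value in each LSK, Veh and MCP library, but 36, 31 and 30 in the 3 WT LSC libraries and 20, 14 and 10 in the 3 KO LSC libraries. Over the 13485 tested genes of that experiment the share above the lowest value had the same order, with 96.0% to 97.8% for LSK, 57.1%, 49.2% and 40.0% for WT LSC and 21.3%, 16.6% and 8.7% for KO LSC libraries. In all 3 WT LSC libraries 30.9% of the tested genes were listed at the lowest value and in all 3 KO LSC libraries 70.6%, against 0.638% in both WT LSK libraries; Polr2h, a subunit shared by the nuclear RNA polymerases, was at 0.003 in every LSC library, against LSK means of 69.7 (WT) and 81.8 (KO). A listing at 0.003 in an LSC library is therefore given as that and not as absence of the RNA. Genes above the lowest value stood higher where they were fewer. Their medians were 11.2 to 15.5 RPKM in LSK, 16.4 to 31.7 in WT LSC and 65.4 to 144 in KO LSC libraries. The part of this in higher levels of LSC genes was not tested. Depths estimated from the steps in low values, with no error attached, were 5.43e+06 to 7.73e+06 reads for LSK, 2.73e+06 to 6.51e+06 for WT LSC, 2.75e+06 to 3.79e+06 for KO LSC, 1.28e+07 to 1.8e+07 for Veh and 4.07e+06 to 8.44e+06 for MCP libraries. The drug libraries showed that step only weakly. The targeted gene Cd93 stood at 5.34 and 22.9 RPKM in WT LSK libraries against 1.01 and 2.10 for KO LSK. Among LSC libraries it measured 0.003, 0.003 and 5.74 for WT and 0.003, 44.3 and 0.003 for KO. The Cd93 value of the library labelled KO LSC 2 goes against its label. It does not settle the genotype of that library, since the deleted part of Cd93 is not stated. The counts of calls and the medians of KO LSC comparisons are given with and without that library. Named genes have values without that library only where stated.

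**Figure D1:**
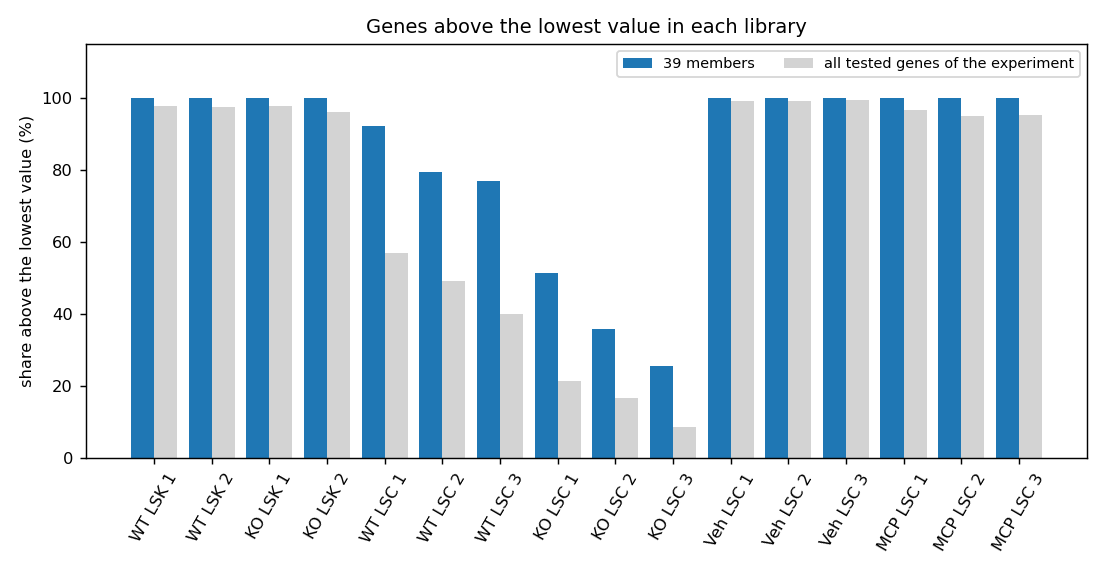
Share of the 39 genes (blue) and of all tested genes of the same experiment (grey) that were above the lowest value, in percent, for each of the 16 libraries. Every LSK and drug library had all 39 genes above it, WT LSC libraries 76.9% to 92.3% of them and KO LSC libraries 25.6% to 51.3%.

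Markers of cell types moved with the groups as well. Of 12 stem and progenitor markers, all were above the lowest value in LSK libraries (summed level 1477 to 2865 RPKM), 4 to 7 in WT LSC libraries (103 to 140) and 1 in each KO LSC library (1.31, 304 and 1.83). Kit, a defining LSK marker, was at 0.003 in all 3 KO LSC libraries. Of 12 neutrophil markers 8 to 10 were above the lowest value in LSK libraries (2087 to 5675), 6 to 8 in WT LSC libraries (63611 to 109521) and 4 or 5 in KO LSC libraries (31522 to 55005), and Ly6g was at 0.003 in all 6 LSC libraries. The part of cell content in the results below was not tested. In such bulk samples fewer cells of a type and less RNA per cell cannot be told apart.

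Metoclopramide was followed by lower levels of Mycn and, less firmly, of Myc in LSCs, while none of the 36 growth and ribosome production genes passed the test. Mycn measured 24.6, 30.4 and 30.4 RPKM in the Veh libraries and 6.885, 9.66 and 9.19 in the MCP libraries. Every MCP library was below every Veh library, with means of 28.5 ± 3.38 (SD, n = 3) and 8.58 ± 1.49, a 3.32-fold lower level. On the log2(RPKM + 1) scale the difference was −1.63 (SE 0.17, adjusted p = 0.00979, limma, two-sided, Benjamini-Hochberg over the 14005 genes tested), against a median of −0.18 over all tested genes. Mycn lies on chr12:12936093-12941914 and encodes a MYC paralog that early hematopoietic progenitors use.

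Myc (chr15:61985391-61990374) measured 203, 211 and 196 RPKM with vehicle and 129, 135 and 163 with MCP. Here too the groups did not overlap, and the mean fell from 203 ± 7.37 to 142 ± 18.4 (SD, n = 3), a 1.43-fold lower level. The log2 difference was −0.52 (SE 0.10, adjusted p = 0.0466, limma). Max, the partner of both proteins, measured 75.7, 103 and 82.7 with vehicle and 89.7, 77.5 and 90.9 with MCP. Its groups overlapped, and its log2 difference of −0.01 had a 95% interval of −0.31 to 0.29 (adjusted p = 0.979).

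The call of Mycn was lost without Veh LSC 2 (adjusted p = 0.0507) or Veh LSC 3 (0.0735), with a log2 difference of −1.58 in both fits. That of Myc was lost in every fit that left out a library except the fit without MCP LSC 3 (adjusted p = 0.0273); the others gave 0.0681 to 0.185. It was also lost with quantile normalization (0.0539), without the filter (0.0702) and with a pseudocount of 0.1 (0.0521), under which Mycn kept its call.

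Of the 39 genes, 2 were called lower, where 1.8% of all tested genes were, and 0 were called higher, where 0.521% were. Groups that did not overlap, with MCP lower, were found for 13 of the 39, where 25.6% of all tested genes did, and Ppan alone, a large subunit assembly factor, was without overlap in the higher direction, where 4.91% did. The median of the 39 differences was −0.12, close to the −0.18 of all tested genes. The 37 genes without a call had differences of −0.37 to 0.29, and their 95% intervals all lay between −0.62 and 0.59. Levels were steady within groups, with a median coefficient of variation over the 39 genes of 4.85% for Veh and 9.34% for MCP.

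**Figure D2:**
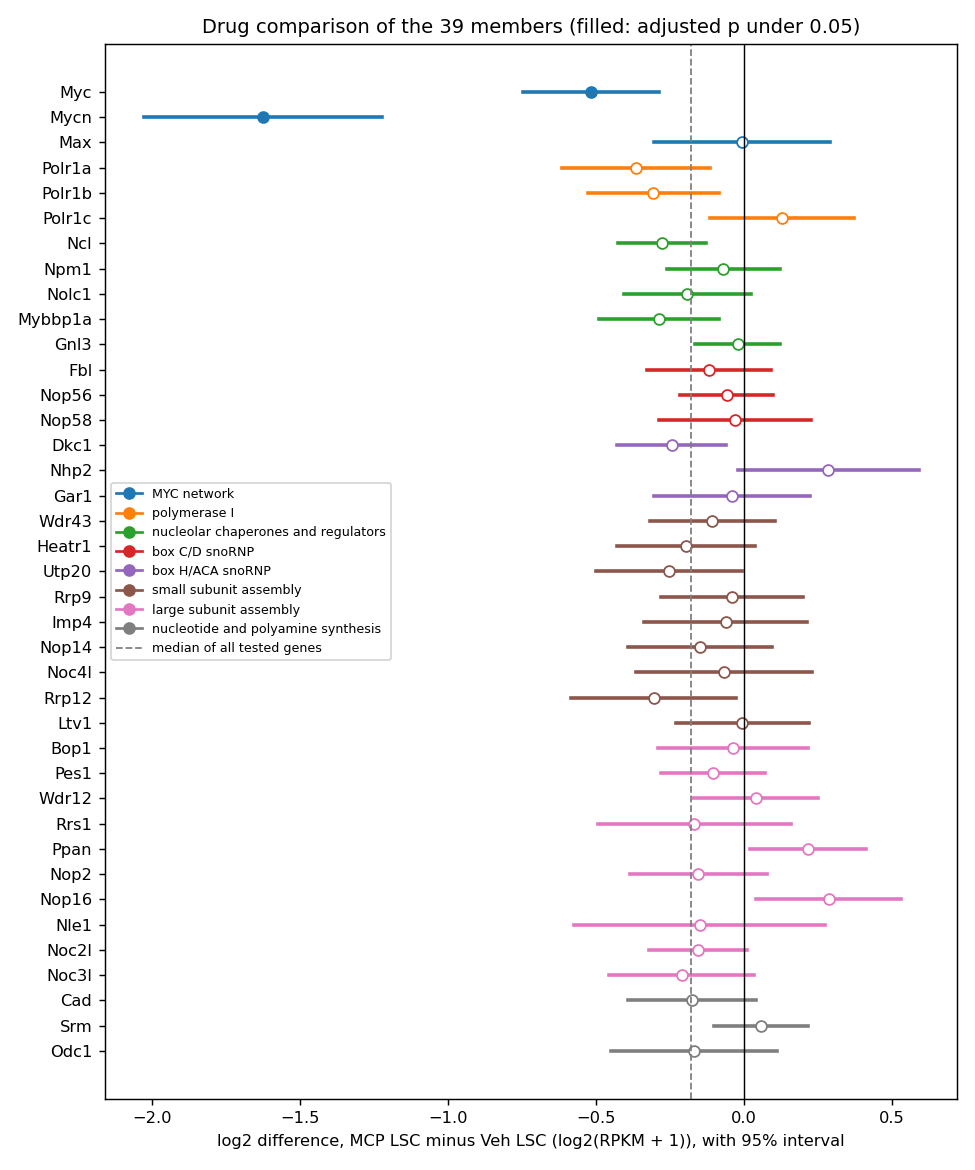
Log2 difference between MCP LSC and Veh LSC for each of the 39 genes (x axis, log2(RPKM + 1) scale, n = 3 libraries a group) with 95% intervals, coloured by role and filled where the adjusted p was under 0.05. Mycn at −1.63 and Myc at −0.52 are the filled points, and the other 37 lie between −0.37 and 0.29 around the dashed median of all genes, −0.18.

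RNA polymerase I subunits came next in size. Polr1a, the catalytic subunit, measured 42.4, 48.7 and 48.2 RPKM with vehicle and 38.1, 32.4 and 36.9 with MCP. Its groups did not overlap, but the log2 difference of −0.37 (SE 0.11) did not pass (adjusted p = 0.111). Polr1b, the other large subunit, had −0.31 (adjusted p = 0.121), and Polr1c, shared with RNA polymerase III, had 0.13 (adjusted p = 0.491). Polr1a has an exon length of 11871 bases. With the trend on exon length removed, Polr1a had −0.08 and Polr1b −0.09 (adjusted p = 0.760 and 0.690, limma).

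Ncl encodes nucleolin, an abundant nucleolar RNA-binding protein, and was the most abundant of the 39 in both groups. It measured 2334, 2557 and 2436 RPKM with vehicle and 2009, 2054 and 1980 with MCP, with no overlap and a log2 difference of −0.28 (SE 0.06, adjusted p = 0.0689). Under quantile normalization its difference of −0.51 passed (adjusted p = 0.0265), and with the trend on exon length removed it was −0.01. Npm1, the ribosome export chaperone nucleophosmin, measured 472, 534 and 493 with vehicle and 521, 452 and 456 with MCP, and its groups overlapped (−0.07, adjusted p = 0.638).

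Fbl encodes fibrillarin, the methyltransferase of box C/D ribonucleoproteins. It measured 52.2, 58.5 and 58.3 RPKM with vehicle and 50.5, 50.1 and 54.6 with MCP, again with overlap (−0.12, adjusted p = 0.459). Its scaffold partners Nop56 and Nop58 had differences of −0.06 and −0.03. In the box H/ACA particles, the pseudouridine synthase gene Dkc1 had −0.25 (adjusted p = 0.130) and the core protein gene Nhp2 had 0.28 (adjusted p = 0.242). All 9 small subunit factors had negative differences (−0.30 to −0.01), as did 7 of the 10 large subunit factors (−0.21 to 0.29 over the 10), and none of these passed. The median over all tested genes was itself −0.18. With the trend on exon length removed, the small subunit factors ran from −0.12 to 0.19, and 16 of the 39 genes changed sign. Cad, the first enzyme of pyrimidine synthesis, and Odc1, which starts polyamine synthesis, had −0.18 and −0.17, and Srm, spermidine synthase, had 0.06.

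The pathway's other genes were mostly without a call in the drug comparison. Of 46 other small subunit factors, Nop10, a small H/ACA protein gene, was higher (0.52, adjusted p = 0.0466) and Nol10 lower (−0.55, adjusted p = 0.0466). None passed among 8 other MYC network factors (median −0.25), 18 other polymerase I genes (0.06), 22 polymerase III genes (−0.16), 51 other large subunit factors (−0.13), 38 other growth and metabolic genes bound by MYC (−0.09) and 26 proliferation genes (−0.13). All 81 cytosolic ribosomal protein genes had positive differences (median 0.27), and 8 of them passed, where 0.521% of all tested genes were called higher. Rpl35a (0.56, adjusted p = 0.0251, limma) and Rpl36 (0.44, adjusted p = 0.0266, limma) had the smallest p. The part of exon length in the ribosomal protein differences was not tested.

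Gene length, depth and cell markers moved with the drug comparison. Over the tested genes matched to a length, the medians of the log2 difference were −0.07, −0.14, −0.21 and −0.26 in 4 classes of exon length, from the shortest to the longest. With the trend on exon length removed, Mycn had −1.48 (adjusted p = 0.0123), Myc −0.40 (adjusted p = 0.0934) and the 39 genes a median of 0.05, and higher calls made up 61.6% of all calls where they were 22.5% before (39.3% with quantile normalization, which moved the median of all genes from −0.18 to −0.03). The 12 stem and progenitor markers summed to 426 to 445 RPKM with vehicle and 268 to 284 with MCP, all above the lowest value in all 6 libraries, and 5 were called lower. The 5 myeloid granule genes, all called higher, summed to 3106 to 3368 and 4784 to 4921, and 6 mast cell and basophil markers, 3 called lower, to 184 to 207 and 75.7 to 88.5. Neutrophil markers (1 of 7 tested called higher, 4 of 7 with negative differences, median −0.13) summed to 203 to 220 and 268 to 374. Among them S100a8 went from 69.8, 83.6 and 63.2 to 145, 105 and 129 and Padi4 from 16.9, 14.5 and 15.8 to 9.07, 12.5 and 9.34. The part of these in the fall of Mycn and Myc was not tested.

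Naive LSK cells expressed all 39 genes in both genotypes, and loss of Cd93 was not followed by a detectable change in any. Myc was the most abundant of the 3 MYC network genes in each LSK library, at 434 and 598 RPKM for WT against 458 and 355 for KO. Mycn measured 53.7 and 91.3 against 55.3 and 28.2, and Max 36.3 and 53.7 against 44.1 and 32.6. The genotypes overlapped for all 3 genes. Their log2 differences were −0.34, −0.81 and −0.21, with adjusted p of 1, 0.822 and 1 (limma).

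Nucleolin, Ncl, measured 747 and 708 RPKM for WT LSK against 685 and 1072 for KO LSK, Npm1 318 and 263 against 292 and 394, and Polr1a 8.55 and 20.4 against 10.5 and 11.9. These overlapped between genotypes. Fbl did not, at 143 and 129 against 163 and 216, with a difference of 0.46 (adjusted p = 1). Rrs1, a large subunit assembly factor, had the largest difference of the 39, from 8.31 and 12.8 to 34.8 and 26.6 (1.47, SE 0.80, adjusted p = 0.830).

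By limma's test 0 of the 39 genes were called between genotypes in LSK cells, where 1.83% of all tested genes were, and 0 had an unadjusted p under 0.05. Groups without overlap were found for 8 genes higher (14% of all tested genes) and 7 lower (20.5%). The median difference was −0.14 against −0.11 over all tested genes. The 4 groups share 1 estimate of spread for each gene, and the 95% intervals ran from −5.31 to 4.64 for Myc and from −1.05 to 0.87 for Imp4. In this model even large changes of Myc in LSK cells would not have been detectable. LSC values enter these widths, which do not measure the spread in LSK cells alone. Across LSC libraries Myc ran from 0.003 to 48.9 RPKM, while Imp4 was at 0.003 in each. Among the other pathway lists no gene passed, the 81 ribosomal protein genes included, which all had positive differences (median 0.61). Differences went with exon length here too. From the shortest to the longest of 4 length classes, the medians were 0.12, −0.15, −0.25 and −0.23. The part of length in the ribosomal protein differences was not tested. Of the cell markers Fcer1a, for the IgE receptor of mast cells and basophils, was called higher in KO LSK (2.75, SE 0.25, adjusted p = 0.00284, limma). It measured 4.14 and 7.84 RPKM there against 0.003 in both WT LSK libraries. Every LSC library also listed it at 0.003, and these values without spread enter the shared estimate. In a model of the LSK groups alone, 0 of 13208 tested genes were called. The 6 markers of mast cells and basophils had a median difference of 1.38, and their part in the LSK values was not tested.

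**Figure D3:**
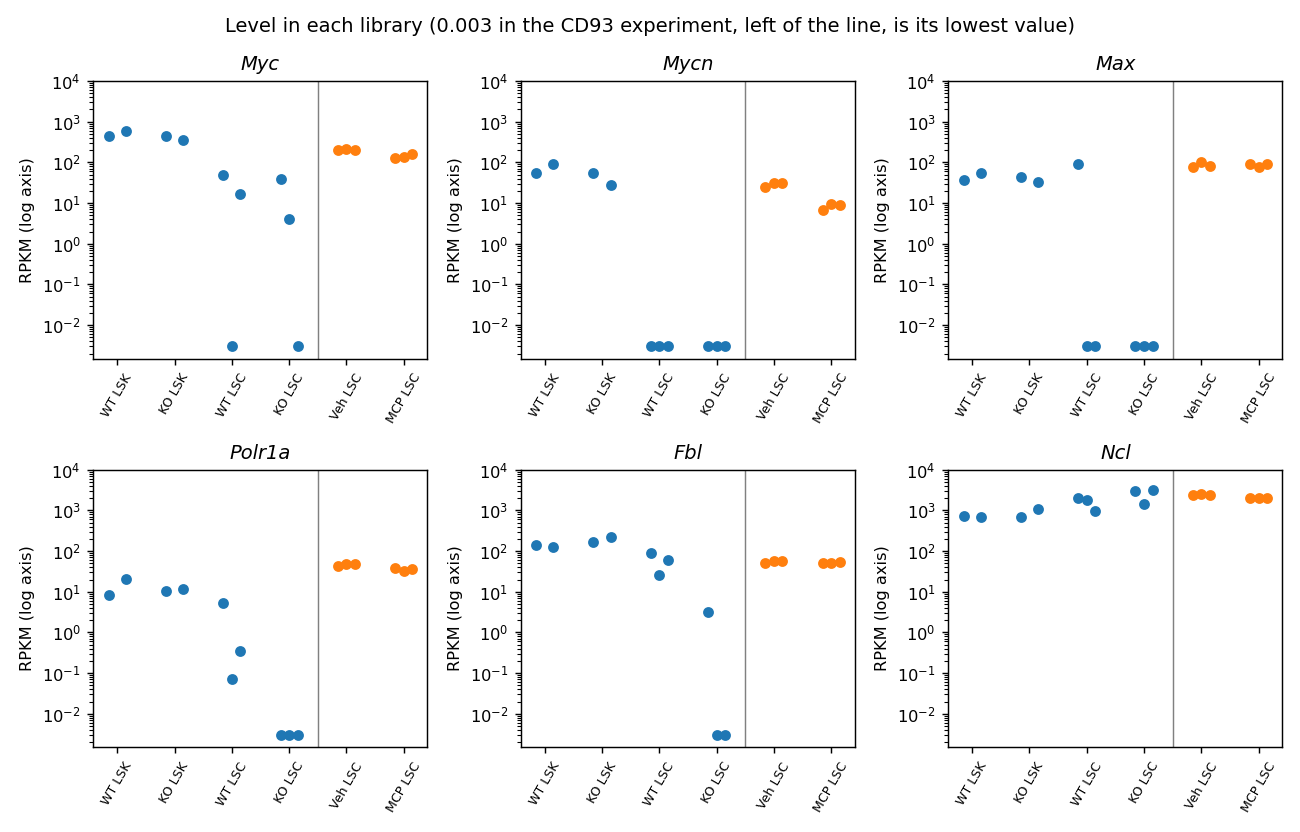
RPKM on a log axis for Myc, Mycn, Max, Polr1a, Fbl and Ncl in each library, with the CD93 experiment in blue left of the line and the drug experiment in orange right of it; the experiments were normalised separately. Points at 0.003 are at the lowest value, where Mycn is listed in all 6 LSC libraries of the CD93 experiment.

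Between WT leukemia stem cells and naive WT LSK cells, 11 of the 39 genes were called lower (28.2%, against 42.3% of all tested genes), Myc and Mycn among them, and Rrs1 was called higher (1 of 39, against 1.45%). Myc measured 48.9, 0.003 and 16.6 RPKM in the WT LSC libraries, each below both WT LSK libraries (434 and 598). Mycn was listed at 0.003 in all 3, against 53.7 and 91.3. Max was at 89.1 in WT LSC 1, above both WT LSK libraries, and at 0.003 in the other two. Myc (adjusted p = 0.0457) and Mycn (adjusted p = 7.67e-06) were called lower and Max was not. The LSC values of Mycn, all at 0.003, had no spread (SD 0), which makes the estimate of spread shared by the 4 groups smaller. Its small adjusted p therefore does not measure the spread of Mycn levels in LSCs.

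Ncl measured 2071, 1805 and 946 RPKM in WT LSC, each above both WT LSK libraries (747 and 708), without a call. Npm1 measured 274, 147 and 159 and Fbl 88.2, 25.2 and 60.5, all below both WT LSK libraries but Npm1 in WT LSC 1. Polr1a, at 5.21, 0.071 and 0.359, was below both WT LSK libraries and was called lower, and so was Polr1b, at 0.76, 0.003 and 0.003 against 8.08 and 31.9.

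Small subunit genes called lower were Heatr1, at 2.27, 2.73 and 2.59 RPKM against 13.9 and 16.3, Imp4, at 0.003 in all 3 against 150 and 188, and Noc4l, at 5.01, 2.12 and 0.003 against 50.045 and 91.4. Large subunit genes called lower were Pes1, at 18.4, 9.99 and 4.92 against 60.3 and 65.0, Nop16, at 36.2, 0.003 and 0.003 against 208 and 224, and Nle1, at 0.003 in all 3 against 47.0 and 56.6. None of these 6 genes overlapped between the groups. Groups without overlap, with WT LSC lower, were found for 17 of the 39 and for 56.3% of all tested genes. Cad, for pyrimidine synthesis, was called lower as well, at 0.873, 3.67 and 4.39 against 19.1 and 30.9. Rrs1 was the only gene of the 39 called higher, at 89.6, 73.5 and 18.5 against 8.31 and 12.8 (2.17, SE 0.73, adjusted p = 0.0425).

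The median difference of the 39 was −1.39, against −1.94 over all tested genes. Quantile normalization moved the latter to −0.50 and turned the median of the 39 to 0.17, with the sign changed for 15 of the 39, the called genes Polr1a (0.59), Heatr1 (0.73) and Cad (0.17) among them. It left 6 lower calls and 1 higher, and the share of higher calls among all genes went from 3.3% to 13.9%. Calls that ended when a library was left out were Myc (adjusted p up to 0.190, without WT LSC 2 or 3 or either WT LSK library), Rrs1 (up to 0.186, without WT LSC 1 or 2 or either WT LSK library), Nop16 (up to 0.0678, without either WT LSK library) and Polr1a (0.129, without WT LSK 2). Myc also lost its call without the filter (adjusted p = 0.0525), among genes averaging at least 5 RPKM (0.0581), with a pseudocount of 0.1 (0.126), with library weights (1) and in a model of these groups alone (0.0754). Rrs1 lost its call with that pseudocount (0.0711), with library weights (0.103) and in that model (0.134), as did Polr1a (0.0908) and Nop16 (0.0716) in the latter.

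Of the wider pathway, the WT leukemia comparison called lower 3 of 9 other MYC network factors, 3 of 18 other polymerase I genes, 7 of 22 polymerase III genes, 17 of 46 small and 11 of 51 large subunit factors, 16 of 39 other growth and metabolic genes and 11 of 26 proliferation genes, beside the 42.3% of all tested genes. None of these lists had a higher call. Mxd1, which encodes a repressor that competes with MYC for MAX, was at 0.003 in all 3 WT LSC libraries against a WT LSK mean of 7.55 RPKM (adjusted p = 9.47e-05), and Polr3a, the catalytic subunit of RNA polymerase III, at 0.003 against 9.44 (adjusted p = 4.54e-06). The WT LSC values of both had no spread, as for Mycn. Ribosomal protein genes went the other way, with 12 of 81 called higher, where 1.45% of all tested genes were, and 0 lower (median 0.84). Among them Rps15 rose from 1468 to 7494 RPKM (adjusted p = 0.00163, limma).

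**Figure D4:**
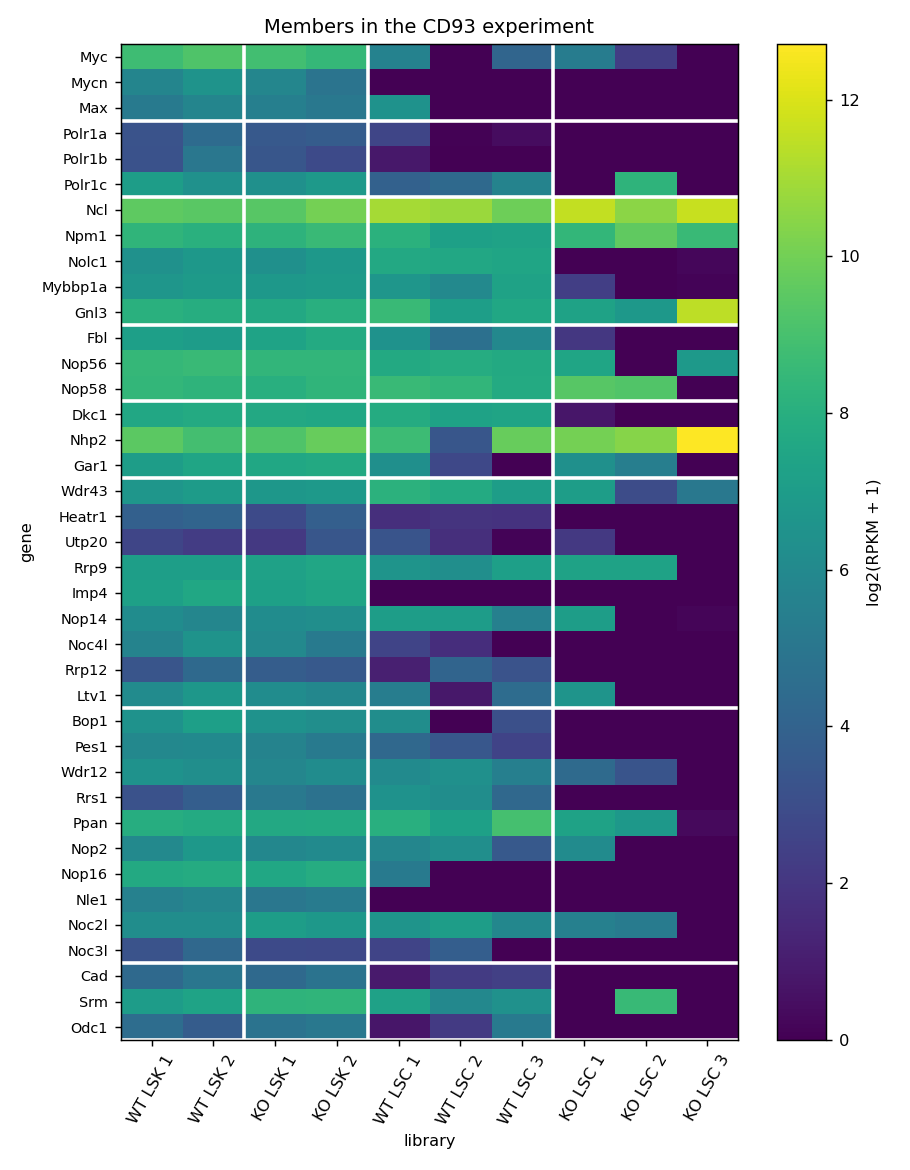
Level of each of the 39 genes (rows, grouped by role with white lines) in the 10 libraries of the CD93 experiment (columns) as log2(RPKM + 1), from dark for the lowest values to yellow. The KO LSC columns are dark for most genes, with 16 of the 39 at the lowest value in all 3, while Ncl, Npm1, Gnl3, Nhp2 and Wdr43 stayed above 1 RPKM in every KO LSC library.

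In leukemia stem cells labelled KO, 7 of the 39 genes were called lower than in WT LSCs (17.9%, against 8.74% of all tested genes), and 0 were called higher (against 0.0742%). Genes at the lowest value in all 3 WT LSC libraries could not be called lower. These were 30.9% of all tested genes but 3 of the 39. In a model of these 2 groups alone, 6 of the 32 genes it tested were called lower, where 14.2% of 6074 tested genes were. Nolc1, a nucleolar chaperone of small nucleolar particles, measured 203, 199 and 176 RPKM for WT LSC against 0.003, 0.003 and 0.176 for KO LSC. Dkc1 measured 223, 157 and 171 against 0.725, 0.003 and 0.003, and Mybbp1a, a nucleolar regulator of transcription, 102, 62.0 and 158 against 4.05, 0.003 and 0.092. For each of the 3 genes every KO LSC library was below every WT LSC library. Groups without overlap in this direction were found for 15 of the 39 and for 14.1% of all tested genes.

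Fbl measured 88.2, 25.2 and 60.5 RPKM for WT LSC against 3.10, 0.003 and 0.003 for KO LSC. Rrs1 (89.6, 73.5 and 18.5), Pes1 (18.4, 9.99 and 4.92) and Heatr1 (2.27, 2.73 and 2.59) were listed at 0.003 in every KO LSC library. The 7 adjusted p ran from 0.000498 for Nolc1 to 0.00676 for Heatr1 (limma). KO LSC values of Rrs1, Pes1 and Heatr1 had no spread, so their small adjusted p do not measure the spread of their levels.

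MYC network genes were not called. Myc measured 39.9, 3.95 and 0.003 RPKM in KO LSC against 48.9, 0.003 and 16.6 in WT LSC, which overlapped, and Mycn was at 0.003 in all 6 libraries. Max was at 0.003 in the KO LSC libraries and in 2 of 3 WT LSC libraries. Polr1a was at 0.003 in all 3 KO LSC libraries without a call.

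Not every nucleolar gene was low in KO LSC. Ncl measured 2993, 1472 and 3218 RPKM there and 2071, 1805 and 946 in WT LSC, and Npm1 338, 771 and 394 against 274, 147 and 159. Npm1 was thus higher in every KO LSC library, without a call. Gnl3, which encodes the stem cell nucleolar GTPase nucleostemin, measured 160, 107 and 2830, and Nhp2 1050, 1339 and 6699. Both were highest in KO LSC 3. The median over all values above the lowest value was 144 RPKM in that library, against 16.4 to 31.7 in WT LSC libraries. The part of this in these high levels was not tested. Nop58 measured 667, 614 and 0.003. Ncl, Npm1, Gnl3, Nhp2, Wdr43 and Ppan were the 6 genes above the lowest value in all 16 libraries.

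The median difference was −2.02, against −0.77 over all tested genes, and without the library labelled KO LSC 2 these were −2.13 and −0.80. In a model of these 2 groups alone they were closer together, at −2.67 and −2.43. All 7 were called in each fit that left out a library, with 9 lower calls without the library labelled KO LSC 2, these 7 among them, and 11 without KO LSC 1. Quantile normalization ended the calls of Nolc1 (adjusted p = 0.150, limma), Fbl (0.242) and Mybbp1a (0.539). Library weights ended those of Dkc1 (0.134), Mybbp1a (0.801) and Fbl (0.841), and a model of these 2 groups alone that of Heatr1 (0.0780). Pes1 and Rrs1 passed under every alternative run. Pes1, Rrs1 and Heatr1 were at 0.003 in every KO LSC library, so leaving out a KO LSC library could not move their KO LSC means. The KO LSC libraries also had fewer genes above the lowest value and fewer stem and progenitor markers (above), which cannot be told apart from the genotype here.

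Among the other lists, 2 of 18 other polymerase I genes, 5 of 22 polymerase III genes, 3 of 46 small and 8 of 51 large subunit factors, 7 of 39 growth and metabolic genes, 3 of 26 proliferation genes and 0 of 9 other MYC network factors were lower in KO LSC, beside 8.74% of all tested genes. Without the library labelled KO LSC 2 these counts were 3, 5, 8, 11, 7, 2 and 0 in the same order, beside 8.86% of all tested genes. The polymerase I subunit gene Znrd1 was at 0.003 in all 3 KO LSC libraries against a WT LSC mean of 325 RPKM (adjusted p = 0.000498, limma). Ddx18, a large subunit helicase gene, was at 0.003 in all 3 against 136 (adjusted p = 0.000498, limma). Without KO LSC 2 both had an adjusted p of 0.00188 (limma). The KO LSC values of both had no spread, so these p-values do not measure the spread of their levels. Of 81 ribosomal protein genes only Rps9 was called higher (1.39, adjusted p = 0.0347, limma), where 0.0742% of all tested genes were. Its call was lost without KO LSC 2 (0.107), and 0 of the 81 were called lower.

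Against KO LSK cells, 22 of the 39 genes were called lower in KO LSC (56.4%, against 61.7% of all tested genes), and Ncl was called higher (1 of 39, against 0.564%). Imp4, Nle1, Mycn, Heatr1, Pes1, Cad, Noc4l and Rrs1 were at 0.003 in all 3 KO LSC libraries, and their KO LSK values ran from 6.29 for Heatr1 to 169 RPKM for Imp4. Dkc1, Nolc1, Fbl and Mybbp1a were at most 4.05 in KO LSC and at least 81.0 in KO LSK. These 12 had the smallest adjusted p, from 5.21e-06 to 0.000821. Genes at 0.003 in every KO LSC library had no spread there, so such p-values do not measure the spread of their levels. Another 10 genes were called lower, with log2 differences of −7.70 to −2.82, among them Myc (adjusted p = 0.0266), Max (0.0325) and Polr1a (0.00344).

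Ncl, the gene called higher, went from 685 and 1072 RPKM in KO LSK to 2993, 1472 and 3218 in KO LSC (1.50, SE 0.53, adjusted p = 0.0395, limma). The median over all values above the lowest value rose too, from 12.9 and 11.2 to 65.4, 127 and 144. The part of this in the call of Ncl was not tested. Npm1 measured 292 and 394 against 338, 771 and 394, without a call. Fbl fell from 163 and 216 to 3.10, 0.003 and 0.003.

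The median difference was −3.85, against −3.06 over all tested genes, which quantile normalization moved to −1.14 with 14 lower calls left. Without the library labelled KO LSC 2 there were 21 lower calls and 1 higher, 20 of them shared with the full fit, and medians of −4.14 over the 39 and −3.13 over all tested genes. The calls of Max and Noc3l ended whichever library was left out (adjusted p 0.0629 to 0.141), that of Myc in 4 of 5 fits (up to 0.119, kept without KO LSC 1), that of Ncl in 4 of 5 (up to 0.177, kept without KO LSC 2), that of Wdr12 without either KO LSK library (up to 0.149) and that of Bop1 without KO LSK 1 (0.0502). The call of Ncl also ended with quantile normalization (adjusted p = 0.257), without the filter (0.0615), with library weights (0.999) and in a model of these groups alone (0.0601), and that of Myc with quantile normalization (0.0975), a pseudocount of 0.1 (0.0735) and library weights (0.926).

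Of the wider pathway, lower calls in KO LSC were made for 6 of 9 other MYC network factors, 9 of 18 other polymerase I genes, 19 of 22 polymerase III genes, 27 of 46 small and 24 of 51 large subunit factors, 25 of 39 growth and metabolic genes and 14 of 26 proliferation genes, beside the 61.7% of all tested genes. Without the library labelled KO LSC 2 they were 4, 11, 19, 29, 32, 23 and 15, beside 58.9%. Cdk4, a growth gene bound by MYC, was at 0.003 in all 3 KO LSC libraries against a KO LSK mean of 1184 RPKM. Of the 81 ribosomal protein genes 8 were higher, beside 0.564% of all tested genes, and 1 lower (median 0.03). Without KO LSC 2 they were 6, beside 0.698%, and 3 (median 0.01).

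The genotype effect differed between leukemic and naive cells for 4 of the 39 genes (10.3%), each lower in LSCs, where 5.15% of all tested genes were. These were Nolc1, Dkc1, Rrs1 and Mybbp1a, with differences between the genotype effects of −7.46, −7.16, −7.14 and −5.91 on the log2 scale and adjusted p of 0.00802, 0.00865, 0.00941 and 0.0405 (limma). In LSK cells Nolc1, Dkc1 and Mybbp1a had genotype differences of −0.05, −0.08 and 0.07, and Rrs1 had 1.47. Without the library labelled KO LSC 2 there were 4 calls, where 4.82% of all tested genes were called lower. Of these 4 calls 3 were shared, and Mybbp1a was not among those (adjusted p = 0.0643, limma). The median over the 39 was −1.88 with that library and −1.75 without it, against −0.78 and −0.80 over all tested genes. The call of Mybbp1a ended in 7 of 10 fits that left out a library, and quantile normalization and library weights each left the call of Rrs1 alone. With the replicate number as a block, although it did not pair the samples, 0 of the 4 calls were left (adjusted p 0.0668 to 0.121, limma). Comparisons of the CD93 experiment share groups, so their calls are not independent of each other.

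Differences of genes with and without CACGTG were set side by side. In the drug comparison the median was −0.11 over the 9 genes with the motif and −0.15 over the 23 without it. In WT LSC against WT LSK the medians were −2.56 and −1.40, and in KO LSC against WT LSC −2.16 and −1.85, an order that turned without KO LSC 2 (−1.59 and −1.85). These are descriptions over genes, without a test.

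Levels of Myc and Mycn in WT leukemia without MCP differed between the experiments, which were normalised separately and cannot be compared by a test. Veh LSC came from mice given vehicle. Myc was 0.003 to 48.9 RPKM in WT LSC and 196 to 211 in Veh LSC, and Mycn 0.003 against 24.6 to 30.4. Max, at 75.7 to 103 in Veh LSC, was at 0.003 in 2 WT LSC libraries, and Imp4 and Nle1, at 0.003 in all 3 WT LSC libraries, were 43.9 to 51.8 and 25.1 to 28.8 in Veh LSC.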

How the data were processed

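The study sequenced RNA of sorted bone marrow cells after SMART-Seq v4 amplification (per the labels' protocols). The authors deposited 1 table of values a library, taken here as RPKM; the unit is not named in the labels and rests on how the values look, and the plan had allowed for counts as well. The build is GRCm38 (mm10), per the submitters' processing notes; no source used here names the aligner, the counter or the annotation. The 39 genes, the other lists and the rule for naming genes were chosen with earlier results of these data known.

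Groups follow the sample titles; for drug samples, titled LSC, another label field says LSK. Values were analysed as log2(RPKM + 1) with limma 3.58.1 (R 4.3.3, statmod 1.5.0), with an intensity trend, 1 model for the 10 libraries of the CD93 experiment and 1 for the 6 of the drug experiment. The test covered genes that reached 1 RPKM in 2 or more libraries (13485 and 14005) and was two-sided, with Benjamini-Hochberg adjustment over all tested genes and a threshold of 0.05. All 39 genes passed this filter in both experiments. A fold is not given for a gene at the lowest value in a whole group, and log2 differences of such genes depend on the added 1. Equal values at the floor add no spread to the shared estimate, so small adjusted p of such genes do not measure the spread of their levels. Named were all called genes up to 12 a comparison, otherwise the 12 with the smallest adjusted p, always Myc, Mycn, Max, Ncl, Npm1, Fbl and Polr1a, and at most 2 genes of each other list; further genes of the 39 are named as examples, chosen after their values were seen.

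Depth was estimated from steps in low values, after a first estimator that picked multiples of the step had been replaced on seeing its results; 52.5% to 67.5% of low values lay within 0.1 of a whole multiple in the CD93 experiment and 25.2% to 31.7% in the drug experiment, where even spread gives 20%. No counting interval was computed. Gene positions and exon lengths are from GENCODE M21, and promoter windows from RefSeq (GRCm38.p6). The model was tested on simulated data. Alternatives were quantile normalization, no filter, a filter on a mean of 5 RPKM, the replicate number as a block, a pseudocount of 0.1, library weights, a model of the compared groups alone, and fits that left out each library in turn; the crossed block and removal of the length trend were added after seeing the data.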

Additional observations from a re-analysis of the deposited data

Results flagged for a closer look

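Genotype effects that differed between leukemic and naive cells were found for 4 of the 39 genes by the test of that difference (limma, adjusted over all tested genes). With the replicate number as a block 0 of these 4 calls were left (adjusted p 0.0668 to 0.121, limma). Nolc1, the nucleolar chaperone, had a difference of −7.46, Dkc1, the pseudouridine synthase, −7.16, Rrs1, the large subunit factor, −7.14 and Mybbp1a −5.91 on the log2(RPKM + 1) scale. KO LSC values of these genes were at or near the lowest value, and those libraries held 8.7% to 21.3% of the tested genes above it; the part of this in the result was not tested. Dixon's rule on a single far sample was not applied, since no group has 4 libraries.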

How the results depend on the processing

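Replicate numbers in the labels did not pair the samples: correlations of same-numbered deviations were −0.01 to 0.01 in the drug comparison, −0.02 to 0.00 between WT and KO LSC and −0.28 between WT and KO LSK. With the replicate block the drug comparison kept 1 call among the 39 genes (Myc, adjusted p = 0.112, lost) and the difference between genotype effects kept 0 (Nolc1, Dkc1 and Rrs1 0.0668, Mybbp1a 0.121); Myc in WT leukemia (0.0802) and Ncl in KO leukemia (0.0856) also lost their calls. With the LSK numbers crossed the difference between genotype effects again had 0 calls.

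The drug comparison had 1 call with no filter (Myc, adjusted p = 0.0702), 1 with a pseudocount of 0.1 (Myc, 0.0521) and 1 with the length trend removed; with quantile normalization it had 2, Mycn and Ncl, without Myc (0.0539), and 7 of the 39 genes changed sign, none of them called. Quantile normalization left 7 calls in WT LSC against WT LSK, where the median of the 39 turned from −1.39 to 0.17 and 15 of the 39 changed sign, the called genes Polr1a (0.59), Heatr1 (0.73) and Cad (0.17) among them, 14 in KO LSC against KO LSK and 1 in the difference between genotype effects, for which library weights also left 1. Leaving out libraries gave 0 to 2 calls with the drug, 0 in LSK cells, 7 to 11 in KO against WT LSC, 8 to 13 in WT leukemia, 17 to 25 in KO leukemia and 3 to 6 for the difference between genotype effects. The causes were not tested.

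Calls over all tested genes moved more: 325 with the drug (25 without Veh LSC 3, 406 without MCP LSC 1), 247 in LSK cells (0 with only the compared groups, 943 without KO LSK 1), 1188 in KO against WT LSC (868 with only the compared groups, 2065 without WT LSC 3), 5905 in WT leukemia (3021 among genes averaging at least 5 RPKM, 6455 without WT LSC 1), 8391 in KO leukemia (5395 with quantile normalization, 9094 with a pseudocount of 0.1) and 820 for the difference between genotype effects (0 with the block, 1558 without WT LSC 3). Estimated depth and content had the same order in some libraries and not in others. WT LSC 3, at about 6.51e+06 reads, had 40.0% of the tested genes above the lowest value and WT LSK 1, at about 5.8e+06, had 97.8%. Veh libraries, at 1.28e+07 to 1.8e+07 reads, had 99.2% to 99.4% and MCP libraries, at 4.07e+06 to 8.44e+06, had 95.1% to 96.6%. The part of depth in the content was not tested.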
